A study of Homo sapiens with 12 samples.

Results

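The genes described here are 46 genes of DNA crosslink and excision repair, chosen by symbol from the 58735 genes of the deposited count table because they act in the Fanconi anemia pathway, homologous recombination, excision or mismatch repair, translesion synthesis or the DNA damage checkpoint. The rule uses no measured value, although the list was drawn up with earlier results of these data known, and all 46 were found and passed the filter on low counts in every comparison. RNA was sequenced from HK-2 cells, an immortalised line of human proximal tubule cells that carries the papillomavirus genes E6 and E7. The 12 samples formed 4 groups of 3: controls given H2O, and 3 drug groups exposed for 48 h. The drugs were the iodinated X-ray contrast agent iohexol at 75 mg I/mL, the platinum chemotherapy cisplatin at 5 μM and the glycopeptide antibiotic vancomycin at 4 mM. The study compared each drug with the control group as cell models of drug-induced kidney injury, at 1 dose and 1 time for each drug, and all groups were cultures of the same line.

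Cisplatin forms covalent bonds with purine bases and links bases within a strand and across strands. In the Fanconi anemia pathway a core complex, anchored on DNA by FANCM, attaches ubiquitin to the pair FANCD2 and FANCI, after which nucleases around SLX4 cut beside the crosslink, translesion polymerases fill the gap and homologous recombination with BRCA1, BRCA2 and their partners restores the broken copy. Nucleotide excision repair removes bulky adducts through the helicases of TFIIH and a pair of nucleases, and the kinases ATM and ATR pass the signal of damaged or stalled DNA to CHEK2 and CHEK1. Much of this machinery serves replicating DNA, and many of its genes are transcribed most in S phase.

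Total counts per sample were between 14057282 and 18177109, so 3 counts corresponded to 0.165 to 0.213 CPM (counts scaled to a common library total), a limit that covers counting error only. The labels did not say whether the 3 samples of a group came from separate cultures, so p-values measure the spread between these samples, which may be technical. Iohexol replicate 3 stood apart from the other iohexol samples, since counts gave a chi-square divided by its degrees of freedom of 14.6 and 15.5 against the others and of 3.56 between replicates 1 and 2. Control replicate 1, which enters every comparison with control, gave 7.3 and 9.75 against the other control samples, which gave 3.07 between them, and vancomycin pairs gave 5.78 to 11.9. Of 12 proximal tubule markers, LRP2, SLC22A6, SLC22A8 and HNF4A had at most 3 counts in every sample, while GGT1, MME and the keratins KRT8 and KRT18 were expressed. Of 9 markers of leukocytes, endothelium, fibroblasts and podocytes, CD68 had at most 3 counts in every sample, and the summed CPM of the 9, most of it COL1A1, ranged over 26.6 to 36 in controls, 26.4 to 30.4 under iohexol, 48.3 to 52.8 under cisplatin and 40.9 to 43.6 under vancomycin. These are bulk samples, in which fewer cells of a kind, such as cells in S phase, and less RNA per cell cannot be told apart.

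Expressed per kilobase of gene length, RAD23B, which stabilises the damage sensor XPC, had the highest level of the 46 genes in the control group, at 86.1 ± 1.11 CPM per kb (SD, n = 3). The break sensor NBN followed at 31.7 ± 2.61 and the ATR activator TOPBP1 at 25 ± 1.96 CPM per kb. With iohexol NBN at 23.9 ± 2.72 and TOPBP1 at 22.4 ± 3.10 lay within each other's spread, although every iohexol sample of NBN was below its control samples. With cisplatin NBN was the lower of the pair, at 18.8 ± 0.195 against 22.5 ± 0.597 CPM per kb. At the other end RAD50, the partner of NBN, had 0.510 ± 0.0402 and the nuclease gene ERCC5 0.581 ± 0.0379 CPM per kb in the control group. In the annotation 79.7% of the exon bases of RAD50 also belong to AC116366.3 and 63.2% of those of ERCC5 to BIVM-ERCC5, and how reads in shared exons were assigned is not given in the sources used here. AC116366.3 had a mean of 0.0307 CPM and BIVM-ERCC5 of 0. The levels per kb divide by all exon bases, the shared ones included, so the low rank of RAD50 and ERCC5 may not reflect their RNA.

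**Figure D1:**
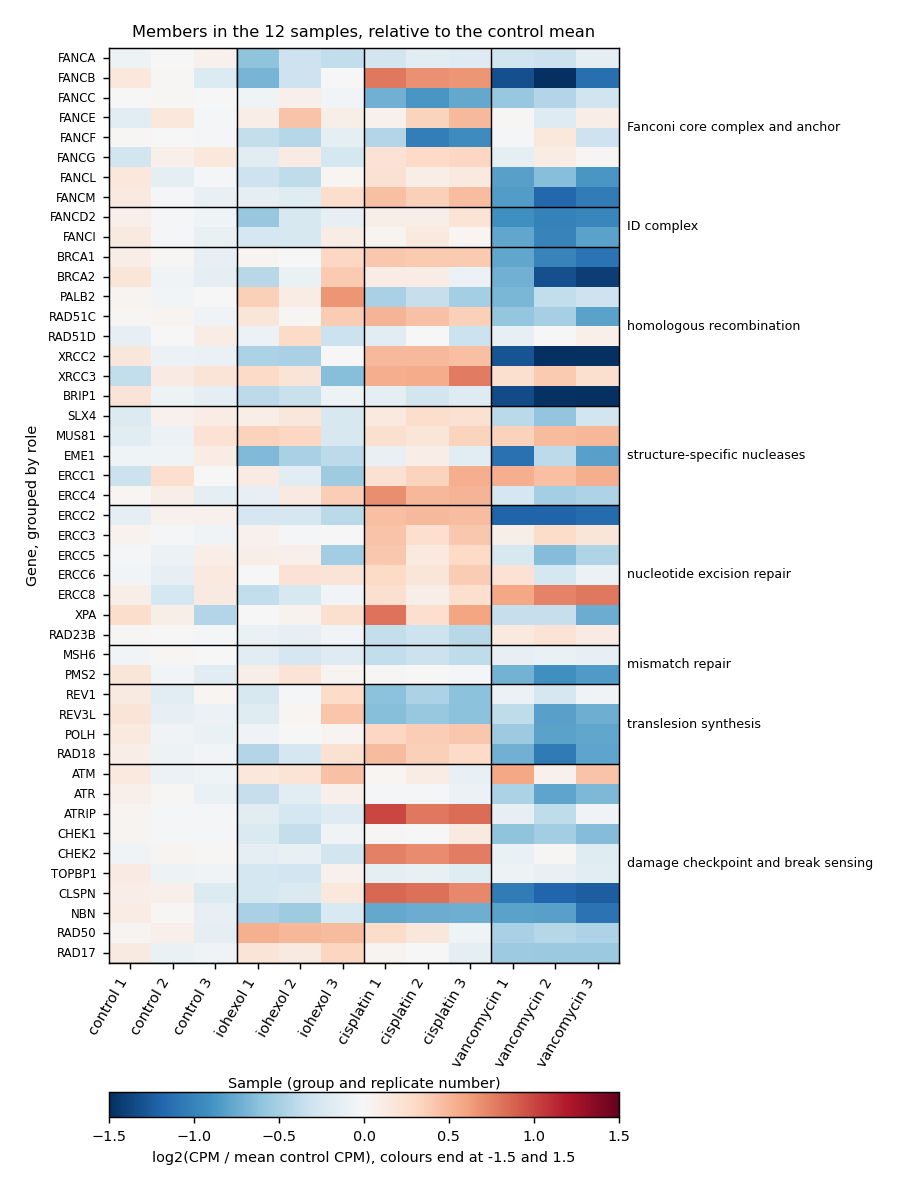
Heatmap of the 46 genes (rows, grouped by role) in the 12 samples (columns), as log2 of the CPM over the mean CPM of the 3 control samples. Red is above and blue below the control mean, and the vancomycin columns hold the deepest blue cells, in BRIP1, XRCC2, FANCB, BRCA2, ERCC2 and CLSPN, where the cisplatin columns are red for XRCC2, FANCB, ERCC2 and CLSPN.

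Vancomycin was compared with the control group to ask which genes changed with the antibiotic. Of the 46 genes, 28 fell and 4 rose (edgeR quasi-likelihood test, adjusted p under 0.05), beside 28.8% of all 15819 genes tested that were lower and 29% that were higher. The share that fell was 60.9% of the members. Their median log2 fold change was -0.49, with a range of -1.49 to 0.66, and the median of all genes tested was -0.01. Vancomycin and control samples did not overlap for 6 members upward and 30 downward, beside 5357 and 4639 of the 15819 genes tested. With the fold threshold of the study added (log2 fold change above 1 or below -1), 8 members fell, BRIP1, ERCC2, XRCC2, CLSPN, FANCD2, FANCB, BRCA2 and FANCM, beside 7.65% of all genes. None of the 4 that rose reached the threshold, which 10.8% of all genes passed upward. FANCM at -1.05 and FANCD2 at -1.01 lay just inside it and BRCA1 at -1 after rounding and NBN at -0.94 just outside.

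Homologous recombination held the deepest falls. BRIP1 (ENSG00000136492, chr17:61681266-61863521, minus strand), a helicase that binds BRCA1 and is also a Fanconi protein, had 73.9, 61.0 and 58.5 CPM in the control samples, 49.1, 51.1 and 60.9 with iohexol, 58.1, 53 and 56.2 with cisplatin, and 25.5, 23.0 and 22.4 with vancomycin. Every vancomycin sample was below each of the other 9, and the log2 fold change from control was -1.49 ± 0.12 (SE; edgeR, adjusted p = 1.09e-10), a level 2.80-fold lower. XRCC2 (ENSG00000196584, chr7:152644779-152676165, minus strand), a recombination factor, had 49.1, 41.1 and 40.7 CPM in the control samples, 31.4, 31.1 and 43.5 with iohexol, 61.2, 60.9 and 59.5 with cisplatin, and 17.8, 14.7 and 15.5 with vancomycin. Cisplatin samples were all above and vancomycin samples all below the control samples, with log2 fold changes of 0.47 ± 0.08 (adjusted p = 0.000106) and -1.49 ± 0.12 (adjusted p = 3.11e-10, edgeR). BRCA2 (ENSG00000139618, chr13:32315474-32400266, plus strand), a mediator of strand exchange, had 45.3, 38.7 and 36.1 CPM in the control samples, 30.1, 37.3 and 52.4 with iohexol, 43.3, 43.1 and 37.7 with cisplatin, and 24.3, 16.1 and 15 with vancomycin. Its iohexol samples spanned the whole control range, its vancomycin samples lay below the rest, and its log2 fold change with vancomycin was -1.15 ± 0.15 (edgeR, adjusted p = 4.75e-07). In all, 6 of the 8 recombination genes (75%) fell with vancomycin, beside 28.8% of all genes. The others called were BRCA1 (-1), RAD51C (-0.66) and PALB2 (-0.49), while RAD51D at -0.05 (adjusted p = 0.71) and XRCC3 at 0.25 (adjusted p = 0.124) did not pass the test.

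Both genes of the ubiquitinated pair fell. FANCD2 (ENSG00000144554, chr3:10026414-10101930, plus strand) had 45.4, 42.2 and 41.0 CPM in the control samples, 29, 36.3 and 39.3 with iohexol, 45.7, 45.5 and 49.6 with cisplatin, and 22.7, 21.3 and 21.7 with vancomycin. Its vancomycin samples were the lowest of the 12 and its log2 fold change was -1.01 ± 0.11 (edgeR, adjusted p = 2.87e-08), beside -0.90 for FANCI (adjusted p = 4.90e-08). In the core complex and its anchor 5 of 8 genes (62.5%) fell, beside 28.8% of all genes. FANCB (ENSG00000181544, chrX:14835961-14873069, minus strand), a member of the catalytic module with the ubiquitin ligase FANCL, had 22.6, 20.6 and 17.6 CPM in the control samples, 12.5, 16.4 and 20.2 with iohexol, 35.2, 32.6 and 32.2 with cisplatin, and 8.13, 6.08 and 9.24 with vancomycin. The cisplatin samples of FANCB were the highest of the 12 and its vancomycin samples the lowest, with log2 fold changes of 0.72 ± 0.10 (adjusted p = 1.37e-05) and -1.41 ± 0.16 (adjusted p = 5.25e-08, edgeR). FANCM (ENSG00000187790, chr14:45135940-45200890, plus strand), the DNA translocase that anchors the complex, had 20.6, 18.4 and 17.4 CPM in the control samples, 17.1, 16.6 and 22.6 with iohexol, 25.6, 24.1 and 26.0 with cisplatin, and 10.5, 8.31 and 9.12 with vancomycin. Like FANCB it was higher with cisplatin and lower with vancomycin than in the control samples, at 0.42 ± 0.10 with cisplatin (adjusted p = 0.00172) and -1.05 ± 0.14 with vancomycin (adjusted p = 8.78e-07, edgeR). FANCL (-0.81), FANCC (-0.47) and FANCA (-0.30) also fell with vancomycin, and FANCE (-0.07), FANCF (-0.09) and FANCG (-0.04) did not pass the test (adjusted p of 0.654 to 0.786). The FANCA call was lost without control replicate 3 and without vancomycin replicate 1 or 2.

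In nucleotide excision repair 2 of 7 genes fell and 1 rose with vancomycin. These shares, 28.6% and 14.3%, stood beside 28.8% and 29% of all genes, so the share that fell was that of all genes. ERCC2 (ENSG00000104884, chr19:45349837-45370918, minus strand), the XPD helicase of TFIIH, had 80.3, 91.9 and 92.1 CPM in the control samples, 73.7, 73.7 and 66.6 with iohexol, 120, 123 and 121 with cisplatin, and 38.2, 38.2 and 39.5 with vancomycin. The 4 groups of ERCC2 did not overlap, with log2 fold changes of -1.23 ± 0.10 for vancomycin (adjusted p = 1.60e-10), 0.46 ± 0.07 for cisplatin (adjusted p = 1.52e-05) and -0.29 ± 0.10 for iohexol, the last short of the threshold (adjusted p = 0.0525, edgeR). ERCC3, the XPB helicase of the same TFIIH complex, was at 0.14 with vancomycin (adjusted p = 0.196) and rose with cisplatin (0.36, adjusted p = 0.000267). XPA, which checks the lesion before it is cut, fell with vancomycin (-0.51, adjusted p = 0.0285), although its vancomycin and control samples overlapped. The XPA call was lost without control replicate 1 or 2 and without vancomycin replicate 3. ERCC8, a subunit of the ubiquitin ligase of transcription-coupled repair, rose from 6.17, 4.83 and 6.38 CPM to 8.63, 9.66 and 10.0 CPM (log2 fold change 0.66 ± 0.17, edgeR, adjusted p = 0.00206), with 28.3% of its exon bases annotated also to the pseudogene GNL3LP1. Its partner in that pathway, ERCC6, was at -0.07 (adjusted p = 0.648).

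Among the 5 structure-specific nuclease genes 3 fell and 2 rose with vancomycin (60% and 40%, beside 28.8% and 29% of all genes). The genes of each working pair were called in opposite directions, but the ERCC4 call depended on single samples. It was lost without control replicate 1 or 2 and without vancomycin replicate 2 or 3. MUS81 rose (0.40, adjusted p = 0.00549) and EME1, a partner of MUS81, fell (-0.79, adjusted p = 0.000253). EME2, from a further list of repair genes, was not called (0.06, edgeR, adjusted p = 0.818). ERCC1 rose (0.47, adjusted p = 0.00252) while its partner ERCC4, the XPF nuclease, fell (-0.44, adjusted p = 0.0272). The scaffold SLX4 fell by 0.46 on the log2 scale (adjusted p = 0.00531). MUS81 had 23.3, 24.7 and 30.5 CPM in the control samples and 33.2, 36.3 and 37.1 with vancomycin, and EME1 had 12.8, 12.9 and 14.5 against 6.19, 10.2 and 7.64. Neither pair of groups overlapped, as for 5357 genes upward and 4639 downward of all 15819 tested. An exon of MUS81 overlaps CFL1 and one of ERCC1 overlaps CD3EAP, both on the opposite strand, in 13.9% and 28.6% of their exon bases. CFL1 had a mean of 390 CPM against 30.6 for MUS81. The partners overlap opposite-strand genes as well, EME1 with LRRC59 in 16.4% of its exon bases, where LRRC59 had a mean of 184 CPM against 10.9 for EME1, and ERCC4 with AC010401.1 in 25.7%.

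In mismatch repair PMS2, an endonuclease subunit, fell (-0.86, adjusted p = 1.18e-05), with 41.6% of its 31-base sequences also present in pseudogenes such as PMS2CL, and MSH6 was at -0.15 (adjusted p = 0.114). In translesion synthesis RAD18, the ligase that marks PCNA (-0.89), POLH, the polymerase that copies past cisplatin adducts (-0.74), and REV3L, the catalytic subunit of polymerase zeta (-0.67), fell, and REV1 was at -0.17 (adjusted p = 0.193). Of the 10 checkpoint and break-sensing genes 6 (60%) fell, beside 28.8% of all genes, with CLSPN deepest. CLSPN (ENSG00000092853, chr1:35720218-35769967, minus strand) encodes claspin, the adaptor through which ATR activates CHEK1, and had 60.2, 59.2 and 48.5 CPM in the control samples, 46.8, 48.1 and 62.3 with iohexol, 102, 99.6 and 92.3 with cisplatin, and 27.0, 24.6 and 23.7 with vancomycin. Iohexol samples lay around the control samples, cisplatin samples above and vancomycin samples below, with log2 fold changes of 0.81 ± 0.08 for cisplatin (adjusted p = 2.57e-07) and -1.20 ± 0.11 for vancomycin (adjusted p = 3.67e-09, edgeR). The other checkpoint genes that fell with vancomycin were NBN (-0.94), ATR (-0.68), CHEK1 (-0.63), the clamp loader RAD17 (-0.60) and RAD50 (-0.50). ATM rose (0.34, adjusted p = 0.0224) with overlapping samples, and ATRIP, CHEK2 and TOPBP1 did not pass the test. The ATM call was lost with library size only. It was also lost without control replicate 2 or 3 and without vancomycin replicate 1 or 3.

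**Figure D2:**
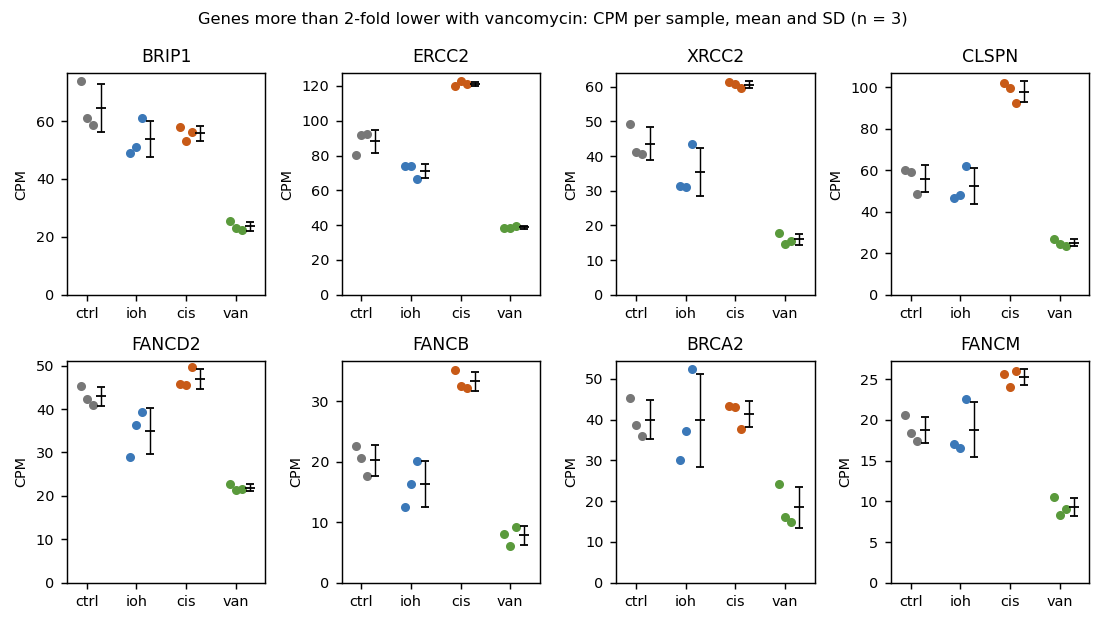
CPM (vertical axes, each from 0) of the 8 genes past the fold threshold with vancomycin in control (ctrl), iohexol (ioh), cisplatin (cis) and vancomycin (van) samples; coloured points are samples, and black marks the mean with its SD (n = 3). In every panel the 3 vancomycin samples are the lowest of the 12, and for ERCC2, XRCC2, CLSPN, FANCD2, FANCB and FANCM the cisplatin samples lie above all control samples.

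Promoter windows were read for 44 of the 46 genes (64 windows of 250 bases before to 50 after an annotated start, RefSeq, GRCh38.p14) and searched on both strands for letters of E2F sites, through which many S phase genes are driven. The letters were TTTCCCGC, TTTGGCGC, TTTCGCGC and TTTGCCGC. They stood in 10 of the 64 windows (15.6%), beside 3.31% of all 35116 windows and 4.04% of those of protein-coding genes. The 9 genes that held them were FANCA, FANCC, FANCD2, XRCC2, MSH6, PMS2, REV3L, TOPBP1 and CLSPN. The letters of the CHR element (TTTGAA or TTCGAA) stood in 9.38% of the member windows and 16.4% of all, CCAAT in 40.6% and 34.6%, and the SP1 letters GGGCGG in 70.3% and 45%. Some E2F and SP1 matches can share bases with each other. Of the 26 genes with a window that fell with vancomycin 7 held the E2F letters, of the 4 that rose 0, and of the 14 not called 2. With cisplatin 2 of 19 that rose, 4 of 8 that fell and 3 of 17 not called held them.

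The windows of XRCC2, CLSPN and FANCD2 are shown because they were the genes past the fold threshold that held the E2F letters, which are in capitals. Those of RAD51D and ERCC5 are shown as genes called with no drug that lacked the letters. FANCE was a further such gene and is not shown, since its smallest p over the 3 drugs was below theirs. Each stretch of 130 bases runs 5′ to 3′ on the gene's own strand, from 100 bases before the annotated start. The capitals began 21 bases after the start in XRCC2, 5 before it in CLSPN and 2 before it in FANCD2.
XRCC2 (chr7:152676112-152676241, minus strand): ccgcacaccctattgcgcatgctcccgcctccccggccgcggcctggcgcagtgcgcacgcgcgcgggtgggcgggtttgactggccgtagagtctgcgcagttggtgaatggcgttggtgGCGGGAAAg
CLSPN (chr1:35769949-35770078, minus strand): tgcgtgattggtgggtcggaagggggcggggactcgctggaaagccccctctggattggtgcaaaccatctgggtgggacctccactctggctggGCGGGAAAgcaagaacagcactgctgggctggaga
FANCD2 (chr3:10026337-10026466, plus strand): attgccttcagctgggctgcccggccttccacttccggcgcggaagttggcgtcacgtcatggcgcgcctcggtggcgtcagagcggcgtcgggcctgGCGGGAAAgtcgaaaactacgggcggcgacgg
RAD51D (chr17:35119729-35119858, minus strand): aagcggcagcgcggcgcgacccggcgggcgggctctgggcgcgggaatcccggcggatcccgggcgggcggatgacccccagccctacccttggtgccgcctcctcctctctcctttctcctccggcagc
ERCC5 (chr13:102845932-102846061, plus strand): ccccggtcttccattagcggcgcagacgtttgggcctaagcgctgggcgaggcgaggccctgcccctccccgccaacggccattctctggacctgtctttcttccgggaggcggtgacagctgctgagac
The 3 genes with the letters held the same 8 bases, GCGGGAAA, near the start. Their fall with vancomycin was fixed by the choice, since no other change of a member from control passed the fold threshold. With cisplatin XRCC2 and CLSPN rose and FANCD2 was at 0.13 (edgeR, adjusted p = 0.165). BRIP1, ERCC2, FANCB, BRCA2 and FANCM passed the threshold without the letters. MSH6 and TOPBP1 held the letters and were not called with vancomycin. A match in the letters is a description of the sequence and not evidence of binding.

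Cisplatin was compared with the control group in the same way. Of the 46 genes 19 rose and 9 fell (edgeR, adjusted p under 0.05), beside 29.2% of all 15876 genes tested that were higher and 30.6% that were lower. The shares of the members were 41.3% and 19.6%. Cisplatin and control samples did not overlap for 19 members upward and 11 downward, beside 5175 and 5154 of the 15876 genes tested. The median log2 fold change of the members was 0.18 and that of all genes 0.01, and no member passed the fold threshold, which 7.62% of all genes passed upward and 8.72% downward. The members ranged from -0.79 to 0.88. When library size alone was used for scaling, the median of all genes moved to 0.23 and the members called to 30 higher and 7 lower, with FANCA and PALB2 no longer called lower. Directions below are therefore relative to the median gene.

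Of the 6 genes of smallest p with cisplatin, NBN, CLSPN, CHEK2 and ATRIP belong to the checkpoint group and the others are FANCC and REV3L. Over the whole checkpoint group 3 of 10 genes rose and 1 fell, at a median of 0.03. These were 30% and 10%, beside 29.2% and 30.6% of all genes. NBN (ENSG00000104320, chr8:89933336-90003228, minus strand), a subunit of the complex that binds broken DNA ends, had 211, 197 and 179 CPM in the control samples, 139, 135 and 166 with iohexol, 115, 116 and 117 with cisplatin, and 112, 111 and 90.6 with vancomycin. All 9 drug samples were below the control samples, and the log2 fold changes were -0.75 ± 0.07 for cisplatin (adjusted p = 4.36e-08), -0.94 ± 0.10 for vancomycin (adjusted p = 1.57e-08) and -0.39 ± 0.10 for iohexol (adjusted p = 0.018, edgeR), each against the same 3 control samples. CHEK2 (ENSG00000183765, chr22:28687743-28742422, minus strand), the kinase that ATM activates, had 22.9, 24.3 and 23.9 CPM in the control samples, 21.5, 22.0 and 19.6 with iohexol, 39.9, 38.6 and 40.5 with cisplatin, and 22.2, 24.0 and 20.9 with vancomycin. Its cisplatin samples stood alone above the other 9 (0.74 ± 0.09, edgeR, adjusted p = 8.81e-07). ATRIP (ENSG00000164053, chr3:48446710-48467645, plus strand), the protein that brings ATR to exposed single strands, had 9.29, 8.91 and 8.88 CPM in the control samples, 8.08, 7.55 and 7.88 with iohexol, 18.1, 15.6 and 16.2 with cisplatin, and 8.32, 6.96 and 8.69 with vancomycin. It showed the highest log2 fold change of the 46 genes with cisplatin, 0.88 ± 0.12 (edgeR, adjusted p = 5.74e-06), or 1.84-fold, with 27.9% of its exon bases annotated also to TREX1. ATR itself was at -0.05 (adjusted p = 0.591) and ATM at 0.01 (adjusted p = 0.92), and CHEK1 at 0.05 (adjusted p = 0.604).

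In the Fanconi core complex and its anchor 3 of 8 genes rose and 3 fell with cisplatin, 37.5% each, beside 29.2% and 30.6% of all genes. FANCB (0.72), FANCM (0.42) and FANCG (0.28) rose with cisplatin and FANCC, FANCF and FANCA fell. The calls of FANCG and FANCA were lost in the fit of all 12 samples and without cisplatin replicate 1 or 3. FANCC (ENSG00000158169, chr9:95099054-95426796, minus strand), which sits with FANCE and FANCF in the substrate-binding module, had 44.2, 45.1 and 44.2 CPM in the control samples, 42.7, 46.8 and 43.1 with iohexol, 27.1, 24.3 and 26.2 with cisplatin, and 30, 32.8 and 36.3 with vancomycin. The cisplatin samples were the lowest and the iohexol samples lay around the control samples (cisplatin -0.79 ± 0.08, edgeR, adjusted p = 3.64e-07). FANCF, a gene of a single exon in the same module, fell by 0.78 ± 0.17 (adjusted p = 0.000629), from 9.22, 9.10 and 9.01 CPM to 6.72, 4.43 and 4.73, while FANCE was at 0.30 (adjusted p = 0.0663). FANCD2 at 0.13 (adjusted p = 0.165) and FANCI at 0.07 (adjusted p = 0.427) did not pass the test.

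In recombination XRCC3 (0.63), XRCC2 (0.47), RAD51C (0.44) and BRCA1 (0.40) rose and PALB2, which joins BRCA1 to BRCA2, fell (-0.45, adjusted p = 0.00113). Of the 8 recombination genes 50% rose and 12.5% fell, beside 29.2% and 30.6% of all genes. XRCC3 shares 76.7% of its exon bases with KLC1 on the opposite strand, and whether reads were counted by strand is not given in the sources used here. BRIP1 was at -0.21, just short of the threshold (adjusted p = 0.0505). The nuclease genes ERCC4 (0.57), ERCC1 (0.37) and MUS81 (0.25) rose, 60% of the 5, beside 29.2% of all genes. MUS81 had the weakest call (adjusted p = 0.0456), and the cisplatin and control samples of MUS81, ERCC1 and XPA overlapped. In excision repair XPA (0.57), ERCC2 (0.46), ERCC3 (0.36) and ERCC6 (0.29) rose and RAD23B fell by 0.36 ± 0.05 on the log2 scale (adjusted p = 2.02e-05), from 403, 395 and 393 CPM to 309, 319 and 298. Of the 7 excision repair genes 57.1% rose and 14.3% fell, beside 29.2% and 30.6% of all genes. The ERCC6 call was lost in the fit of all 12 samples and without control replicate 2 or cisplatin replicate 1 or 3. MSH6, a subunit of a mismatch sensor, also fell (-0.36, adjusted p = 4.43e-05). Of the 4 translesion genes POLH (0.36) and RAD18 (0.38) rose, and REV3L and REV1 (-0.57, adjusted p = 4.92e-05) fell. These were 50% each, beside 29.2% and 30.6% of all genes. REV3L (ENSG00000009413, chr6:111299028-111483715, minus strand) had 75.5, 60.9 and 62.0 CPM in the control samples, 58.2, 67.7 and 88.1 with iohexol, 42.6, 44.7 and 43.2 with cisplatin, and 50.6, 37.7 and 39.9 with vancomycin. Cisplatin and vancomycin samples were all below the control samples and overlapped each other, and the iohexol samples had the widest spread (cisplatin -0.60 ± 0.09, edgeR, adjusted p = 1.35e-05).

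**Figure D3:**
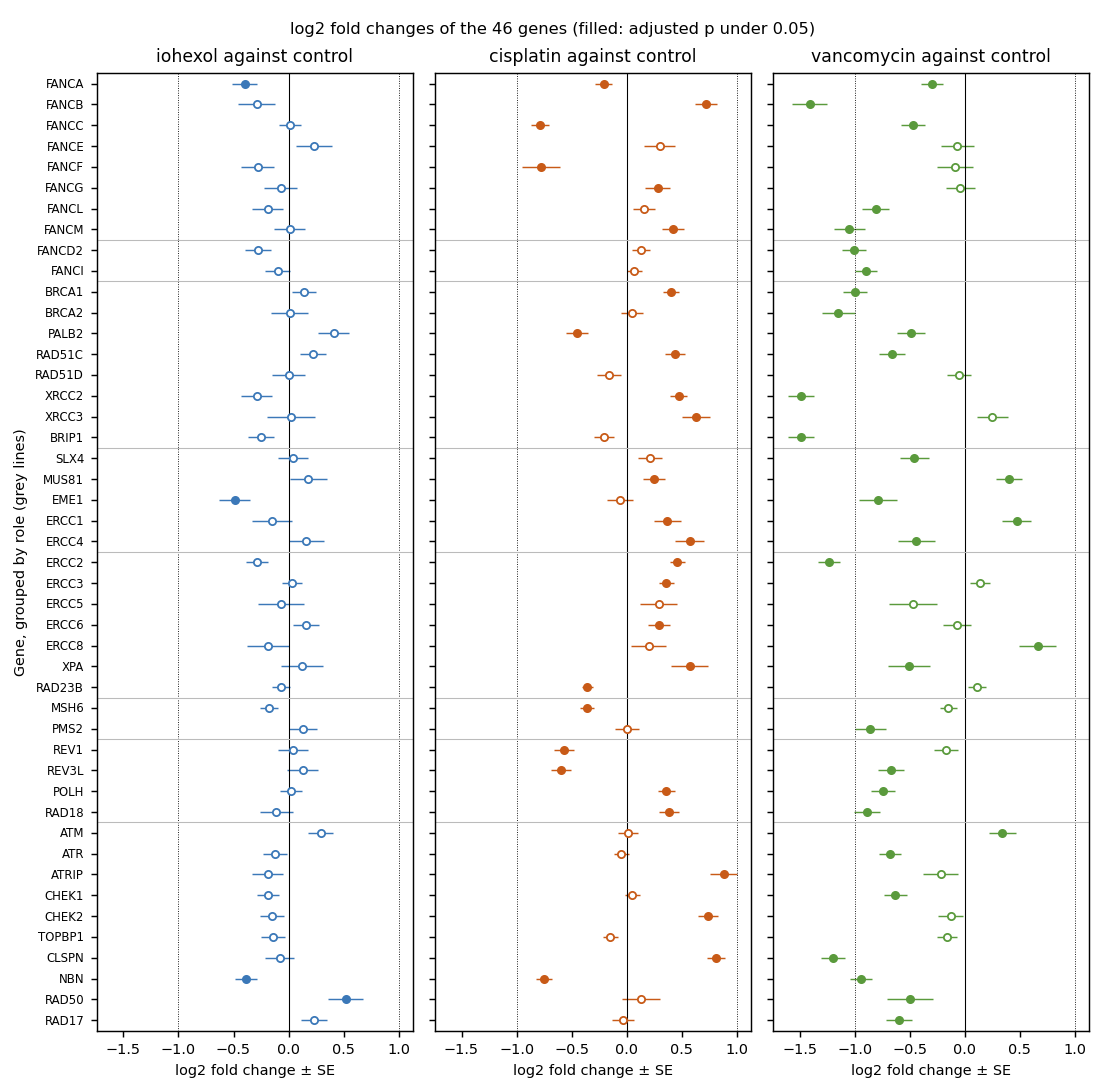
log2 fold change against control (horizontal axes, ± SE) of the 46 genes (vertical, in blocks by role) for iohexol, cisplatin and vancomycin; filled points passed an adjusted p of 0.05 and dotted lines mark log2 fold changes of -1 and 1. Filled points with iohexol are 4, with cisplatin 28 on both sides of 0, and with vancomycin 32, of which 28 lie left of 0.

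The span of the genes was set beside their change, since genes of different span moved differently with cisplatin. With cisplatin all genes tested had median log2 fold changes of 0.29 under 10 kb, 0.18 from 10 to 30 kb, -0.08 from 30 to 100 kb and -0.55 over 100 kb. The members in the same bins had medians of -0.06 (3 genes), 0.46 (7 genes), 0.18 (28 genes) and -0.13 (8 genes). Of the 8 members over 100 kb, FANCC, REV3L and MSH6 fell with cisplatin and BRCA1 and RAD18 rose. The shortest member, FANCF at 2.95 kb, fell. With vancomycin the medians of all genes were 0.21, 0.09, -0.11 and -0.22 in these bins, and those of the members -0.09, -0.07, -0.55 and -0.67. Over the genes, Spearman's rho between span and log2 fold change was -0.34 for the 46 members and -0.43 for all genes with cisplatin, and -0.21 and -0.21 with vancomycin, a description across genes that share the same 6 samples. The part of the span in these results was not tested.

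**Figure D4:**
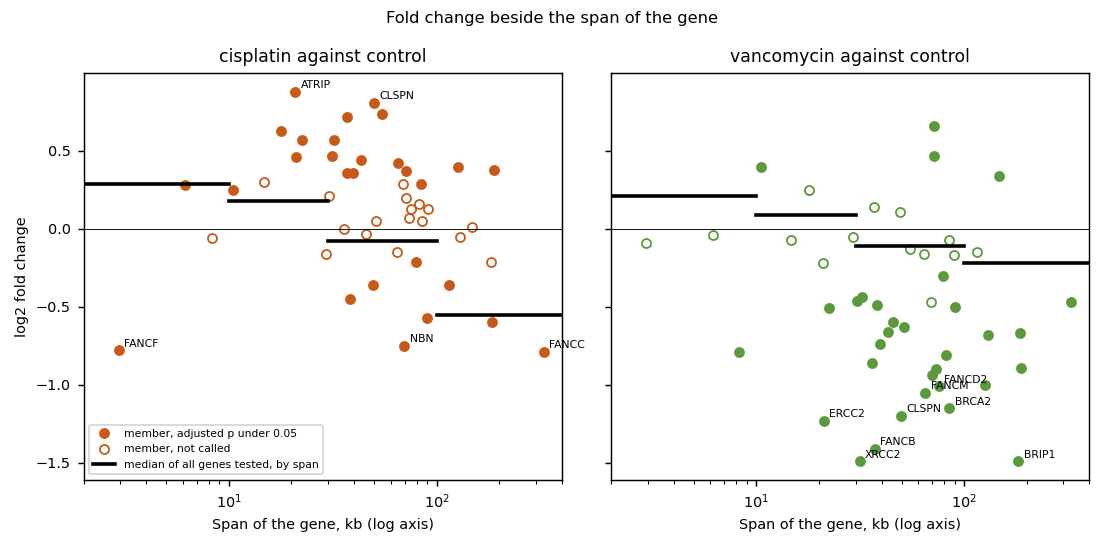
log2 fold change of the 46 genes (points; filled where adjusted p was under 0.05) against the span of the gene in kb on a log axis, for cisplatin and vancomycin; black bars are medians of all genes tested in 4 bins of span. With cisplatin the bars run from 0.29 for the shortest to -0.55 for the longest genes, and with vancomycin the 8 labelled genes at the bottom span from 21.1 kb (ERCC2) to 182 kb (BRIP1).

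Iohexol was compared with the control group last. Of the 46 genes 1 rose and 3 fell (edgeR, adjusted p under 0.05), beside 11.2% of all 15657 genes tested that were higher and 9.77% that were lower. Iohexol and control samples did not overlap for 4 members upward and 11 downward, beside 2910 and 3031 of the 15657 genes tested. No log2 fold change of a member was above 0.52 or below -0.49, and the fold threshold was passed by 4.02% of all genes upward and 1.25% downward. The median of the members was -0.07 and that of all genes 0.01. Without iohexol replicate 3 the members called were 2 higher and 9 lower, and without iohexol replicate 1 or control replicate 2 they were 0 and 0. Without control replicate 3 or iohexol replicate 2 they were at most 1 in each direction. Without control replicate 1 the higher count was 0.

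The 3 members that fell were NBN, with the values given above, FANCA and EME1. FANCA (ENSG00000187741, chr16:89737549-89816657, minus strand), a core complex subunit, had 50.5, 53.5 and 55.9 CPM in the control samples, 35.2, 43.1 and 41.1 with iohexol, 43.9, 47.6 and 46.7 with cisplatin, and 43.2, 42.7 and 48.0 with vancomycin. All 9 drug samples were below the control samples, by log2 fold changes of -0.40 ± 0.11 for iohexol (adjusted p = 0.0199), -0.21 ± 0.08 for cisplatin (adjusted p = 0.0224) and -0.30 ± 0.10 for vancomycin (adjusted p = 0.0148, edgeR), from comparisons that share the control samples. The cisplatin value was 0.01 with library size alone, and 23.6% of the exon bases of FANCA overlap ZNF276 on the opposite strand. EME1 (ENSG00000154920, chr17:50373220-50381483, plus strand) had 12.8, 12.9 and 14.5 CPM in the control samples, 8.5, 9.53 and 10.2 with iohexol and 12.4, 14.3 and 11.9 with cisplatin. Its iohexol samples lay below the control samples and its cisplatin samples among them (iohexol -0.49 ± 0.14, edgeR, adjusted p = 0.0261), with the overlap with LRRC59 given above. The member that rose was RAD50 (ENSG00000113522, chr5:132556019-132646344, plus strand), the ATPase of the complex of NBN, with 5.15, 5.27 and 4.54 CPM in the control samples, 7.25, 7.03 and 6.95 with iohexol, 6.06, 5.60 and 4.78 with cisplatin, and 3.57, 3.71 and 3.63 with vancomycin. The iohexol samples were the highest and the vancomycin samples the lowest of the 12 (iohexol 0.52 ± 0.16, adjusted p = 0.04; vancomycin -0.50 ± 0.21, adjusted p = 0.0482, edgeR), on counts of 55 to 110 reads and with the shared exons described above. The iohexol call of RAD50 was not made with DESeq2 or with all genes of at least 1 count, and its vancomycin call was not made with either, nor with limma-voom or the replicate block. When replicate numbers entered the fit as a block all 4 iohexol calls were lost.

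The differences between drugs were tested directly in a fit of all 12 samples. For cisplatin against vancomycin 27 of the 46 genes were higher with cisplatin and 7 lower (edgeR, adjusted p under 0.05), beside 30% and 34.7% of all 17073 genes tested, and the median difference was 0.61 against -0.03 for all genes. The fold threshold was passed by 14 members upward, beside 12.2% of all genes, and by no member downward, beside 16.2%. FANCB differed by 2.09 ± 0.16 on the log2 scale (SE; adjusted p = 9.64e-10), CLSPN by 1.96 ± 0.12 (adjusted p = 1.17e-11), XRCC2 by 1.92 ± 0.13 (adjusted p = 7.93e-11) and ERCC2 by 1.65 ± 0.08 (adjusted p = 1.31e-12). BRCA1 differed by 1.35 ± 0.10 and BRIP1 by 1.24 ± 0.11. For each of these 6 genes the cisplatin and vancomycin samples did not overlap, as for 5733 genes upward and 6423 downward of all 17073 tested. The 7 members lower with cisplatin than with vancomycin were FANCF (-0.73), RAD23B (-0.52), ERCC8 (-0.51), REV1 (-0.44), ATM (-0.36), FANCC (-0.35) and MSH6 (-0.25). With library size alone the median of all genes moved to 0.30 in this contrast, and the members called were 36 higher and 2 lower, with MSH6 no longer below 0.

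Cisplatin against iohexol gave 21 members higher and 7 lower (edgeR), beside 26% and 27.9% of all genes. The fold threshold was passed upward by ATRIP (1.09 ± 0.13, adjusted p = 5.70e-07) and FANCB (1.03 ± 0.15, adjusted p = 1.16e-05), beside 6.11% of all genes, and downward by no member, beside 11.4%. CHEK2 (0.91), CLSPN (0.90) and ERCC2 (0.77) were also higher with cisplatin and FANCC lower (-0.77), with samples that did not overlap. Samples of these drugs did not overlap for 5175 genes upward and 5229 downward of all 17073 tested. Without iohexol replicate 1 the higher count was 13. Vancomycin against iohexol gave 3 members higher and 26 lower, beside 29% and 27.6% of all genes. The fold threshold was passed downward by 7 members, beside 9.51% of all genes, and upward by no member, beside 10.6%. BRIP1 (-1.18 ± 0.11, adjusted p = 1.67e-08), XRCC2 (-1.14), BRCA1 (-1.08), CLSPN (-1.06), PMS2 (-0.93) and ERCC2 (-0.88) had the smallest p, and the members higher with vancomycin were ERCC8 (0.91), ERCC1 (0.68) and RAD23B (0.25). Without iohexol replicate 1 the higher count was 5.

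Other genes of the same pathways were counted from a list chosen by function, with earlier results of these data known. Of 71 further repair genes tested, 36 fell and 12 rose with vancomycin, 25 rose and 12 fell with cisplatin, and 2 rose and 3 fell with iohexol, and their medians were -0.31, 0.04 and -0.03. The share that fell with vancomycin was 50.7%, beside 28.8% of all genes, and the share that rose with cisplatin 35.2%, beside 29.2%. With iohexol 2.82% rose and 4.23% fell, beside 11.2% and 9.77%. With vancomycin RAD54B (-1.56), RAD51AP1 (-1.18) and the fork remodeller HLTF (-1.17) passed the fold threshold downward, BARD1, the partner of BRCA1, was at -0.99, and CENPX, a histone-fold protein that works with FANCM, rose by 1.19. With cisplatin FAAP24, another partner of FANCM, rose (1.17) and RAD51B fell (-1.97, adjusted p = 1.08e-05), while CDC25A (0.86), RAD51AP1 (0.67) and MDC1 (0.56) rose. With iohexol the polymerase gene POLN rose (1.12, adjusted p = 0.00645) and WRN (-0.47), GTF2H3 (-0.38) and RPA1 (-0.29) fell.

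Genes of the cell cycle moved in the same samples. With vancomycin 26 of 32 S phase genes and 18 of 20 mitosis genes fell, with medians of -0.76 and -0.88, among them the replication factor GINS1 (-1.23), CCNA2 (-1.18), TOP2A (-1.31) and CENPE (-1.59). These were 81.2% and 90% of the lists, beside 28.8% of all genes. With cisplatin 13 S phase genes rose and 8 fell (40.6% and 25%, beside 29.2% and 30.6% of all genes), with a median of 0.09. The licensing factor CDC6 rose (0.83) and MCM6 (-1.09), MCM5 (-0.92) and POLA1 (-1.10) fell. Of the mitosis genes 9 fell and 3 rose with cisplatin (45% and 15%, beside 30.6% and 29.2% of all genes), at a median of -0.11. With iohexol 5 S phase and 9 mitosis genes fell (15.6% and 45%, beside 9.77% of all genes), with medians of -0.09 and -0.30. Of p53 target genes 12 of 22 rose with vancomycin, 12 of 21 with cisplatin and 3 of 21 with iohexol, and 4, 5 and 2 fell. The shares that rose were 54.5%, 57.1% and 14.3%, beside 29%, 29.2% and 11.2% of all genes. PLK2 was among those that fell with cisplatin (-0.81), and CDKN1A, the inhibitor of cyclin-dependent kinases, was at 2.62, 1.55 and 0.66. The part of the cell cycle in the changes of the repair genes was not tested.

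**Figure D5:**
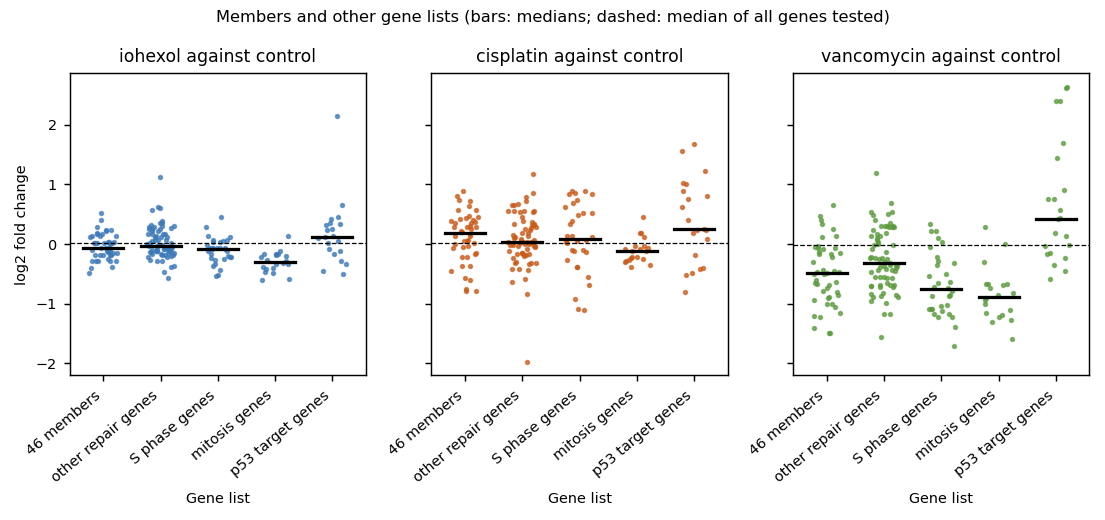
log2 fold change against control (vertical axes) of the 46 genes and of the lists of other repair genes, S phase, mitosis and p53 target genes, for the 3 drugs; each point is a gene, black bars are list medians and the dashed line is the median of all genes tested. With vancomycin the bars of the members (-0.49), S phase (-0.76) and mitosis genes (-0.88) lie below the dashed line and that of p53 target genes (0.42) above it.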

How the data were processed

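The authors deposited counts, the whole numbers of reads per gene in each of the 12 samples, without normalization. The submitters' processing notes name CASAVA 1.8, fastp, HISAT2 2.0.5, featureCounts 1.5.0-p3 and DESeq2 1.20.0. The genome build, annotation and strand setting of the counting are not given in the sources used here, but the start and end of all 58735 genes equal those of GENCODE release 29 on GRCh38.

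Drug and control samples were fitted together, 6 samples at a time, and all 12 samples for differences between drugs, with edgeR 4.0.16 in R 4.3.3 (TMM, filterByExpr with 10 counts and a total of 15, glmQLFit, glmQLFTest, Benjamini-Hochberg adjustment over all genes tested). A gene was called at an adjusted p under 0.05. The SE is the size of the log2 fold change over the square root of F. CPM use the TMM factors of the 12 samples, 0.885 to 1.13. Shared sequence is the percent of 31-base sequences, taken every 5 bases, found in another gene. The code was tested on simulated counts.

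The 46 genes and all lists were chosen with earlier results of these data known. Genes given in full were those past the fold threshold, filled up to 6 a comparison by smallest p (4 with iohexol, all that were called), and between drugs the 6 of smallest p. Of the other lists, genes of smallest p and repair genes past the fold threshold were named. GGT1, MME, keratins and COL1A1 were named after their values were seen. Alternatives were DESeq2 1.42.0, limma-voom 3.58.1, other scalings and filters, a fit of all or fewer groups, the replicate block, other call rules, a shorter promoter window and leaving out each sample. Figures were drawn with matplotlib 3.10.9. FANCI and NBN had no promoter window in the table used. Some genes of the lists are not reported here.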

Additional observations from a re-analysis of the deposited data

How the results depend on the processing

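The replicate numbers 1 to 3 are shared by the groups, and the labels do not say whether they pair the samples. Same-numbered samples of different groups had a mean correlation of deviations of -0.0209 (18 pairs) against 0.0106 for the others (36 pairs). These means depend on each other, since deviations were taken from group means, and they cannot decide whether samples were paired. With the replicate number as a block iohexol had 0 members higher and 0 lower. The block kept all 28 calls of cisplatin, 31 of 32 of vancomycin (not RAD50) and every call between drugs. For iohexol against control (1 higher, 3 lower) the higher count was 0 with DESeq2, 3 with library size only, 0 with all genes of at least 1 count, 2 in the fit of 12 samples and 3 at the unadjusted p, and the lower count 6 in the fit of 12 samples and 6 at the unadjusted p. Leaving out 1 sample gave 0 to 2 higher and 0 to 9 lower. With library size only 30 members rose with cisplatin, 4 were lower for cisplatin against iohexol and 2 lower for cisplatin against vancomycin. At the unadjusted p 11 were lower for cisplatin against iohexol. With the fold threshold 0 members passed for iohexol or cisplatin in either direction, and for vancomycin 0 rose and 8 fell. Between drugs it left 2 higher and 0 lower for cisplatin against iohexol, 14 and 0 for cisplatin against vancomycin, and 0 and 7 for vancomycin against iohexol. Leaving out 1 sample gave 13 to 22 higher for cisplatin against iohexol and 3 to 5 higher for vancomycin against iohexol. With library size only FANCA for cisplatin against control was at 0.01 and MSH6 for cisplatin against vancomycin at 0.09, neither called, and no other called member changed its sign under the alternatives run. Vancomycin kept 31 or 32 of its 32 calls under each alternative that kept all samples and the call rule, cisplatin 24 to 28 of 28. Leaving out 1 sample kept 28 to 30 of the vancomycin calls and 23 to 26 of the cisplatin calls against control. In the window of 100 bases before to 50 after the start 14.1% of member windows held E2F letters (all 1.68%), 3.12% CHR letters and 54.7% SP1 letters.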
